A study of Rattus norvegicus with 44 samples.

Results

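H4-II-E-C3, an established cell line from a rat hepatoma, was exposed to CdCl2 at 1.2 µM for 24 h, and its mRNA was compared with that of control cells on whole genome oligonucleotide arrays. The comparison rests on 4 cadmium arrays and 8 control arrays of the 44 arrays in the series, which also hold lower cadmium concentrations, nickel (NiCl2) and chromium (Na2Cr2O7). All groups were grown in the same medium with fetal bovine serum until flasks were near confluence, and were then washed and exposed in medium without serum. The control cells were unexposed, and the labels call the replicates biological. The concentrations of each metal had been set from cell viability assays, the lowest at no observed cell death and the others at rising levels of cell death. For cadmium 1.2 µM was the highest of the 3 concentrations, above 0.2 and 0.55 µM, and so the one set at the most cell death. Levels are log2 values made with RMA, a method that corrects background, normalizes the arrays and summarizes the probes of each probe set, so a difference of 1 is a doubling. Both groups come from 1 cell line in culture.

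Which arrays are the cadmium arrays was chosen from measured values, and this limits what can be tested. The titles were listed in series order, the 4 titles that name a repeated microarray were moved to the end, and each title was given to the array at the same place among the columns. With this order the means of the 9 exposed conditions matched the study's table of 992 probe sets to within 7.5e-06 (log2), whereas with the labels as deposited the differences had a median of 0.164 and reached 4.32. The table fixes the condition of an array but not its replicate number. Of the 4 cadmium arrays so found, 1 carries the label Cadmium 1.2 µM, 2 the label Cadmium 0.55 µM and 1 the label Chromium 1 µM, and 2 of the 8 control arrays carry the label Cadmium 1.2 µM. In the 4 arrays labelled Cadmium 1.2 µM, the *Mt2A* level of replicates 1 to 4 was 12.70, 7.31, 7.25 and 7.47.

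**Figure D1:**
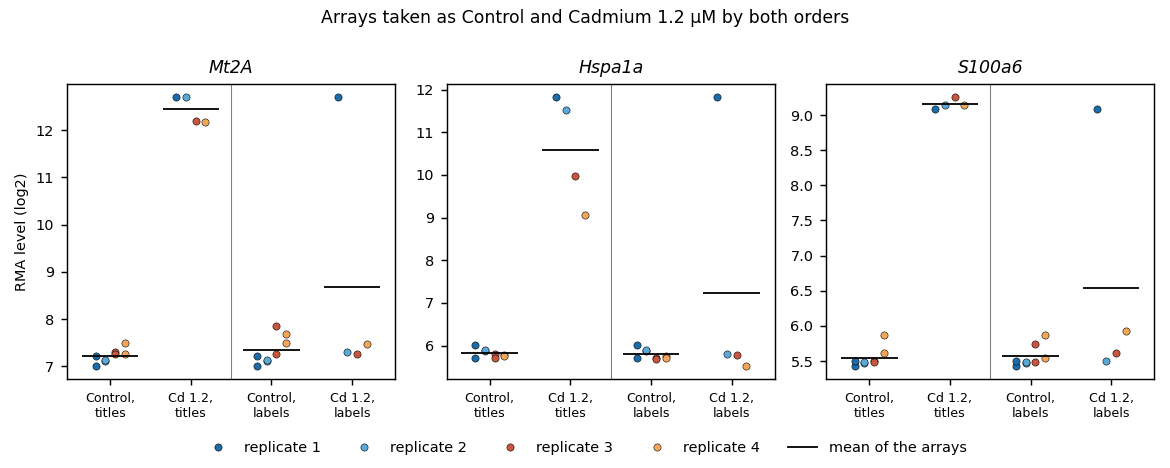
RMA levels (log2, y axis) of *Mt2A*, *Hspa1a* and *S100a6* in the arrays taken as Control and as Cadmium 1.2 µM by the order of the titles (left of the line) and by the labels as deposited (right). Points are arrays colored by replicate and bars are means. With the titles all 4 cadmium arrays lie above all 8 controls, and with the labels 1 of 4 does for *Mt2A* and *Hspa1a* and 2 of 4 for *S100a6*.

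The differences between the 4 and the 8 arrays are therefore given as a description, with array values and no test. P-values come from a separate limma fit of 20 arrays of replicates 1 and 2 whose condition and replicate number are the same in both orders, with replicate as a block and adjustment over all 31042 probe sets. In this fit cadmium at 1.2 µM is the array of replicate 1 alone, which is assumed to vary like the other arrays. "Rose" and "fell" below mean an adjusted p of at most 0.05 in this fit, and "the test" refers to it. The tested array is also 1 of the 4 described, so the test and the description are not independent.

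Cadmium is a toxic metal with no known role in animal cells. In the liver it is bound by metallothioneins, small cysteine-rich proteins whose genes are switched on by the zinc-sensing factor MTF1. Cadmium also binds protein thiols, and damaged proteins in the cytosol and in the endoplasmic reticulum (ER) call up chaperones through HSF1 and through the unfolded protein response.

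By the order of the titles, correlations over all probe sets were 0.9928 to 0.9967 among the 4 cadmium arrays, 0.9891 to 0.9974 among the controls and 0.9829 to 0.9905 between the groups. Control 2 of replicate 4 was the farthest control for several of the genes below, and without it the counts were 251 higher and 72 lower. A probe set was counted as higher or lower where the means differed by at least 1.8-fold and the 4 arrays did not overlap the 8. By this rule 234 of 31042 probe sets (0.754%) were higher and 59 (0.190%) lower, and 218 and 56 of these are in the table from which the order was found. Just inside the threshold the differences were 0.85 and -0.86, and just outside they were 0.85 and -0.84 (log2). With the labels as deposited, 0 were higher and 0 lower. In the test 2409 probe sets rose (7.76%) and 1328 fell (4.28%). For genes represented by 1 probe set, that with the highest mean, 155 of 14217 were higher by this rule (1.09%) and 32 lower (0.225%), while 1716 rose (12.1%) and 623 fell (4.38%). The counts of members below are read against these last values. All counts in the test rest on the cadmium array of replicate 1. For part of the probe sets so called, the other cadmium arrays did not all lie beyond the 8 controls in the same direction. The median difference was -0.04 over all probe sets and -0.00309 over the genes.

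Hepatocyte markers were present and those of other cell types were near the low end of the scale. Mean levels of the 13 measured hepatocyte markers were 10.54 to 10.80 in the cadmium arrays and 10.69 to 10.86 in the controls. Those of bile duct, fibroblast and stellate, endothelial, and macrophage and leukocyte markers lay between 4.65 and 5.44 in both groups. Of the hepatocyte markers 3 rose and 4 fell, and *Alb*, encoding albumin, was 14.45, 14.34, 14.37 and 14.42 in cadmium and 14.38 to 14.62 (median 14.57) in the controls. Among the markers of the other cell types 1 rose and 1 fell. The one that rose was *Cd14*, a receptor for bacterial lipopolysaccharide, with 6.89, 6.67, 7.37 and 7.27 against 5.57 to 6.60 (median 5.83), and the one that fell was the fibroblast collagen *Col3a1*, with 5.67 ± 0.76 (SD, n = 4) against 6.28 ± 0.91 (SD, n = 8). In these bulk samples a loss of cells and less RNA per cell cannot be told apart.

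The metallothioneins and zinc transporters held the largest differences in both directions. Of 23 measured members 6 rose, 2 fell and 15 did not pass the test, with a median difference of 0.11. *Mt2A*, a metallothionein that binds zinc, copper and cadmium, was 12.70, 12.69, 12.20 and 12.18 in cadmium replicates 1 to 4 and 7.02 to 7.50 (median 7.24) in the 8 controls. The lowest cadmium array lay far above the highest control, with a mean difference of 5.21 (37.1-fold), and in the test *Mt2A* rose by 5.62 ± 0.15 (SE), adjusted p = 4.1e-15. *Mt1*, the other metallothionein of liver, was 6.33, 8.03, 6.29 and 6.38 against 4.43 to 4.75 (median 4.57) and rose by 1.89 ± 0.17 (SE), adjusted p = 3.4e-07. Replicate 2 was the highest of the 4 arrays for *Mt1*, and the groups did not overlap. A probe set annotated to *Mt1*, *Mt1f* and *Ttr* together had the largest difference on the array, 5.88, from 7.85 to 8.42 (median 8.03) in controls to 14.14, 14.05, 13.91 and 13.78. It cannot be assigned to 1 gene and was named after its value was seen.

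Of 8 measured zinc transporters of the exporting SLC30 family 2 rose and 6 did not pass. Of 10 of the importing SLC39 family 2 rose, 2 fell and 6 did not pass. *Slc30a1*, which moves zinc out across the plasma membrane and is an MTF1 target, was 9.61, 10.04, 9.19 and 8.84 in cadmium and 6.18 to 6.92 (median 6.76) in controls, and rose by 2.83 ± 0.19 (SE), adjusted p = 4.6e-09. *Slc39a10*, a plasma membrane zinc importer, was 6.60, 6.61, 7.01 and 7.69 against 10.17 to 10.51 (median 10.23), the largest drop of any gene (-3.31), and fell in the test (-3.82 ± 0.19 SE, adjusted p = 8.0e-11). All 4 cadmium arrays lay below all controls, with replicate 4 the least low. *Slc39a4*, the intestinal zinc importer, was 9.20, 8.98, 9.27 and 9.43 against 10.28 to 10.91 (median 10.63) and fell (-1.72 ± 0.10 SE, adjusted p = 3.8e-10). The remaining members that rose were named after their values were seen, and are given as the difference over the 4 arrays and then in the test. They were the vesicular zinc transporter *Slc30a2* (2.11 and 2.58), *Slc39a8*, an importer that also carries cadmium (0.63 and 0.69), and the importer *Slc39a6* (0.57 and 0.51). *Mt3* and *Mt4*, metallothioneins of brain and of stratified epithelium, differed by -0.02 and 0.17 and did not pass.

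Promoters of these genes are shown because they bear on a known element, the metal response element to which MTF1 binds. The core was searched as TGCACNC or TGCGCNC on both strands in the 250 bases before the RefSeq start (GRCr8), and matches are in capitals. It was present in 29.8% of the 11733 promoters of genes on the array, and 2 or more matches in 8.05%. *Mt2A* held 4 matches, *Mt1* 6 and *Slc30a1* 2, whereas *Slc39a10* held 0. Of the 6 members that rose, 4 held 2 or more, and of the 12 with a promoter that did not pass, 7 did, among them *Mt3* with 3. At least 1 match stood in 4 and 9 of them, respectively.
Mt2A, chr19:10838709-10838958, minus strand: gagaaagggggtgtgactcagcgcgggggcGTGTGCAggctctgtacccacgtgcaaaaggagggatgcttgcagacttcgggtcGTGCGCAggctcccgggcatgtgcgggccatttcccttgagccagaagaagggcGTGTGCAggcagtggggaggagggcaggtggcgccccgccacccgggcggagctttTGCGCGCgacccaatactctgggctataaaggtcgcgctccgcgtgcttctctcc
Mt1, chr19:10832976-10833225, minus strand: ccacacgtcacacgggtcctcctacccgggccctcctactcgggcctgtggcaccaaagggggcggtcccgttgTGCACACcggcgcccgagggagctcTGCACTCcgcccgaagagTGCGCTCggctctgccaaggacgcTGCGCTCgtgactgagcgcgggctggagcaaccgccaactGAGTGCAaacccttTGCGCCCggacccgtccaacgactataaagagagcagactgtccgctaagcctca
Slc30a1, chr13:106021769-106022018, plus strand: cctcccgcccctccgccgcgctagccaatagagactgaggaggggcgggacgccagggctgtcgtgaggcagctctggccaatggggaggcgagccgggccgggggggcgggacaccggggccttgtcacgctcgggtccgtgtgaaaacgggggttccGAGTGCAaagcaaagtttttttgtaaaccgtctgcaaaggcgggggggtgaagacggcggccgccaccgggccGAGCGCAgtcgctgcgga
Slc39a10, chr9:62405183-62405432, plus strand: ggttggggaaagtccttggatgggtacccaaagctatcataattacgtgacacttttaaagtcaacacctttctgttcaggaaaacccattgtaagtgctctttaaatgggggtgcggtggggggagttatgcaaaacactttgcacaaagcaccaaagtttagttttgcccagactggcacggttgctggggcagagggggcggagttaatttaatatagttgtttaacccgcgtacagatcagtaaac
A match is a description of letters and not of a bound site.

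Cytosolic heat shock chaperones keep other proteins folded, and the inducible ones answer to HSF1. Of 35 measured members 19 rose, 0 fell and 16 did not pass, and the median difference was 0.29. *Hspa1a*, the inducible member of the HSP70 chaperones, was 11.82, 11.52, 9.97 and 9.06 in cadmium and 5.70 to 6.0 (median 5.79) in controls. The mean difference was 4.78 (27.4-fold), the groups lay far apart, and *Hspa1a* rose by 5.92 in the test. *Hspa1b* has no probe set of its own, and a probe set shared by both genes differed by 4.87. Of 11 J-domain and BAG cochaperones in the list 7 rose and 4 did not pass. *Dnaja4*, a J-domain partner of HSP70, was 10.86, 10.38, 9.95 and 9.62 against 8.18 to 8.69 (median 8.41) and rose by 2.58 ± 0.10 (SE), adjusted p = 1.8e-12. *Bag3*, which links HSP70 to selective autophagy, was 10.96, 10.56, 10.34 and 10.03 against 8.91 to 9.58 (median 9.19) and rose by 1.97 ± 0.12 (SE), adjusted p = 1.1e-09. *Dnajb1*, the main J-domain partner of inducible HSP70, was 10.20, 9.85, 9.12 and 9.07 against 8.49 to 8.77 (median 8.70) and rose by 1.54 ± 0.12 (SE), adjusted p = 3.4e-08.

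Small heat shock proteins hold unfolded proteins in a soluble state. *Cryab* was 11.85, 11.74, 11.67 and 11.61 in cadmium and 9.75 to 10.12 (median 9.94) in controls and rose by 1.78 ± 0.11 (SE), adjusted p = 1.9e-09. *Hspb8* was 11.58, 11.35, 11.51 and 11.42 against 10.03 to 10.65 (median 10.33) and rose by 0.99 ± 0.10 (SE), adjusted p = 7.9e-07. Neither group overlapped. *Zfand2a*, a heat shock and arsenite inducible proteasome-associated protein outside this list, was 11.01, 10.88, 10.39 and 10.06 against 8.14 to 8.68 (median 8.31) and rose by 2.76 ± 0.14 (SE), adjusted p = 8.0e-11. Members that did not pass included *Hspa1l* (-0.07), a testis HSP70, and *Hspa2* (0.30).

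The size of the difference varied between replicates for some heat shock genes and not for others. Set against the 2 controls of the same replicate number, *Hspa1a* was higher by 5.97, 5.64, 4.21 and 3.29 in replicates 1 to 4, *Dnaja4* by 2.65, 2.10, 1.42 and 0.96 and *Dnajb1* by 1.57, 1.33, 0.41 and 0.33. *Bag3* gave 2.01, 1.63, 0.94 and 0.50. In each of these 4 genes replicates 1 and 2 lay above replicates 3 and 4. *Hspb8* ran the other way, with 0.96, 0.95, 1.46 and 1.27, and *Cryab* gave 1.77, 1.86, 1.8 and 1.64. The median over the list was 0.27, 0.32, 0.24 and 0.19. Outside the list, *S100a6* gave 3.62, 3.65, 3.76 and 3.41. The tested array is that of replicate 1, so the tested value of *Hspa1a* (5.92) exceeds its mean over 4 arrays (4.78).

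**Figure D2:**
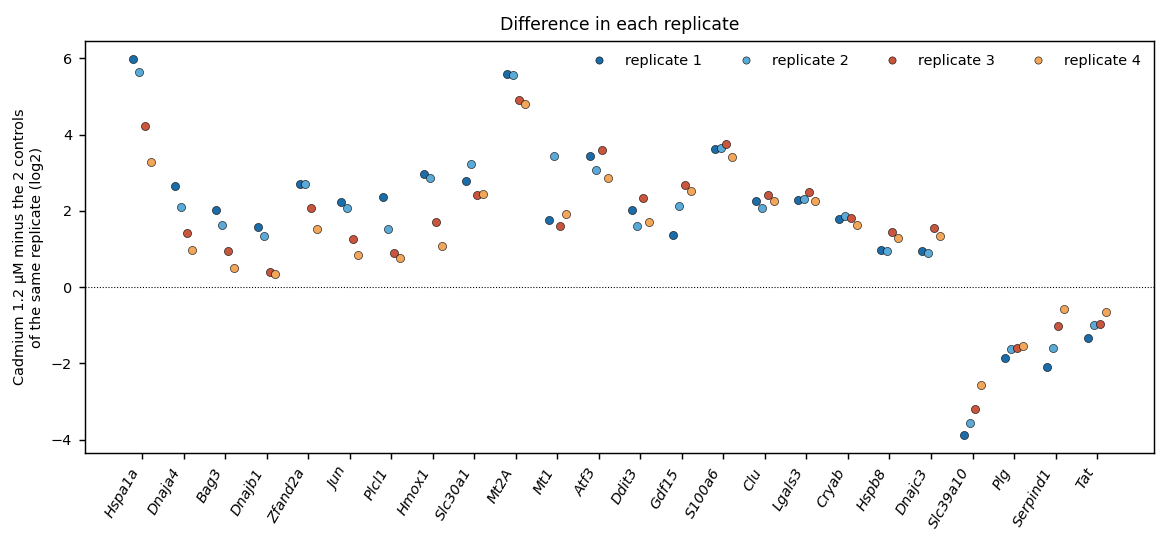
Difference in log2 level (y axis) between the Cadmium 1.2 µM array and the mean of the 2 control arrays of the same replicate number, for 24 named genes (x axis), with 1 point per replicate. For *Hspa1a* the points run from 3.29 to 5.97, for *S100a6* from 3.41 to 3.76, and all 4 points of *Slc39a10*, *Plg*, *Serpind1* and *Tat* lie below 0.

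Other folding and degradation machinery showed smaller differences. Of 18 mitochondrial chaperones and subunits of the cytosolic chaperonin TRiC, 7 rose and 0 fell, with a median of 0.22. Those that rose included the TRiC subunits *Cct8* (0.35 over the 4 arrays and 0.36 in the test), *Cct3* (0.32 and 0.33) and *Cct2* (0.30 and 0.41). The mitochondrial protease *Lonp1*, named after its value was seen, rose with a difference of 0.33 and overlapping arrays. *Hspe1*, the mitochondrial cochaperonin, was 13.55, 13.53, 13.44 and 13.43 against 13.12 to 13.24 (median 13.18) and rose by 0.32 ± 0.06 (SE), adjusted p = 5.6e-04, while its partner *Hspd1* differed by 0.08 and did not pass. Of 40 proteasome subunits 13 rose and 0 fell, with a median of 0.26. *Psmd9*, an assembly chaperone of the regulatory particle, was 9.60, 9.43, 9.54 and 9.55 against 8.79 to 9.09 (median 8.92), without overlap, and rose by 0.61 ± 0.09 (SE), adjusted p = 2.0e-04. *Psmd13*, a lid subunit, rose by 0.52 ± 0.12 (SE), adjusted p = 0.0054. The call of *Cct8* was lost without the replicate block, and those of *Cct8* and *Hspe1* without the intensity trend in the variance.

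*Hspe1* is also the one whose promoter is shown for heat shock factor. The heat shock element was searched as GAANNTTCNNGAA on both strands in the same 250 bases. It was present in 0.366% of the promoters of genes on the array. *Hspe1* held 2 overlapping matches, in capitals, and *Hspd1*, which did not pass, also held 2. The windows of *Hspa1a*, *Dnaja4*, *Dnajb1* and *Bag3* held 0.
Hspe1, chr9:64084077-64084326, plus strand: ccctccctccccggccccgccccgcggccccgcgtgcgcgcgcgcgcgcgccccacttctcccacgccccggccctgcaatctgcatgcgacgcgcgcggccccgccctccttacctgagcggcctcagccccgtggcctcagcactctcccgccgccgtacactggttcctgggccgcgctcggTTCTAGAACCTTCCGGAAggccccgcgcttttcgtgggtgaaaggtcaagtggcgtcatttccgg
No match says only that these letters are not in this window.

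Chaperones of the ER rose in part. Of 43 measured ER chaperones and folding enzymes 15 rose, 2 fell and 26 did not pass, with a median of 0.19. *Dnajc3*, an ER J-domain protein that also inhibits eIF2α kinases, was 9.82, 9.50, 10.07 and 10.04 against 8.52 to 8.90 (median 8.60) and rose by 1.06 ± 0.11 (SE), adjusted p = 1.6e-06. *Sdf2l1*, a partner of the ER HSP70, was 9.13, 9.04, 9.37 and 9.33 against 8.26 to 8.70 (median 8.46) and rose by 0.85 ± 0.10 (SE), adjusted p = 5.9e-06. *Hyou1*, a large ER chaperone, rose by 0.62 ± 0.10 (SE), adjusted p = 2.9e-04. The groups did not overlap for these 3 genes. *Canx*, calnexin, rose by 0.36 ± 0.06 (SE), adjusted p = 3.8e-04. *Calr*, calreticulin, differed by 0.10 and did not pass, nor did *Fkbp11*, at 0.55 over the 4 arrays and 0.31 in the test.

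The ATF4 and CHOP stress response, the arm that follows eIF2α phosphorylation, was split in the test, which rests on replicate 1. Over the 4 arrays, 8 of its 42 measured members were higher by 1.8-fold without overlap and 1 was lower. The shares over all genes were 1.09% and 0.225%. Of 42 measured members 11 rose and 9 fell, with a median of 0.21. Those that rose were led by transcription factors and growth arrest genes. *Atf3*, a stress-induced transcription factor, was 9.24, 8.79, 8.78 and 8.54 in cadmium and 5.10 to 6.20 (median 5.65) in controls, a difference of 3.25, and rose by 3.46 ± 0.29 (SE), adjusted p = 1.5e-07. *Ddit3*, encoding CHOP, was 10.53, 9.88, 9.80 and 9.79 against 7.38 to 8.60 (median 8.27) and rose by 2.17 ± 0.14 (SE), adjusted p = 2.2e-09. *Ppp1r15a*, which directs dephosphorylation of eIF2α, was 10.04, 9.83, 9.90 and 9.79 against 7.95 to 8.61 (median 8.26) and rose by 1.65 ± 0.13 (SE), adjusted p = 3.5e-08. In all 3 genes the lowest cadmium array was above the highest control.

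*Gadd45a*, a growth arrest gene that is also a p53 target, was 10.44, 9.79, 10.07 and 9.88 against 7.18 to 7.89 (median 7.68) and rose by 2.70 ± 0.18 (SE), adjusted p = 5.8e-09. *Gdf15*, a secreted stress cytokine, was 9.96, 10.05, 10.57 and 11.65 against 7.63 to 9.65 (median 8.38) and rose by 1.60 ± 0.27 (SE), adjusted p = 4.4e-04, a call lost without the replicate block. Replicate 4 was the highest for *Gdf15*. *Atf4* itself differed by 0.19 over the 4 arrays and by 0.005 in the test, where it did not pass. *Ddit4*, an mTOR inhibitor, fell in the test (-0.37) with overlapping arrays and a difference of -0.12, a call also lost without the block. *Chac1*, which degrades glutathione, fell, with 9.17 ± 0.09 (SD, n = 4) against 10.05 ± 0.50 (SD, n = 8). Among the genes that fell were also the serine synthesis genes *Phgdh* (-0.34 in the test) and *Psat1* (-0.41), which differed by -0.06 and -0.15 over the 4 arrays, and these 3 genes were named after their values were seen. The list median was -0.03 in replicate 1, 0.14 in replicate 2, 0.37 in replicate 3 and 0.35 in replicate 4.

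The targets of NRF2, the factor that answers oxidative and electrophile stress, were led by heme oxygenase. Of 38 measured members 9 rose, 4 fell and 25 did not pass, with a median of 0.22. *Hmox1*, which breaks down heme and answers to several stress pathways, was 11.02, 10.97, 10.30 and 9.91 in cadmium and 8.05 to 8.86 (median 8.34) in controls. The groups did not overlap, the mean difference was 2.15 (4.45-fold), and *Hmox1* rose by 2.93 in the test. Against the controls of the same replicate number it was higher by 2.96, 2.85, 1.72 and 1.09 in replicates 1 to 4. *Sqstm1*, encoding the autophagy receptor p62, was 12.32, 12.31, 12.42 and 12.31 against 11.83 to 12.04 (median 11.87) and rose by 0.42 in the test. The 4 probe sets of *Sqstm1* differed from the controls by -0.04 to 0.98. *Akr1b8*, an aldo-keto reductase, was 13.11, 13.10, 12.98 and 12.88 against 11.79 to 12.68 (median 12.28) and rose by 0.48 ± 0.07 (SE), adjusted p = 5.2e-05. Both subunits of the enzyme that starts glutathione synthesis stayed close to the controls, *Gclc* at 10.94, 10.91, 11.15 and 11.06 against 10.85 to 11.03 (median 10.98) and *Gclm* at 11.38, 11.67, 11.47 and 11.40 against 11.02 to 11.59 (median 11.47), and neither passed. *Abcc2*, a canalicular export pump, was 10.50, 10.53, 10.68 and 10.65 against 9.03 to 10.38 (median 9.54), a difference of 0.99. In the test, which rests on replicate 1, *Abcc2* differed by 0.36 and did not pass.

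Of 42 apoptosis regulators and caspases 11 rose and 4 fell, with a median of 0.13. *Casp4*, an inflammatory caspase, was 8.47, 8.45, 8.15 and 8.07 in cadmium and 5.91 to 7.28 (median 6.99) in controls and rose by 1.31 ± 0.17 (SE), adjusted p = 3.3e-05. *Tnfrsf12a*, the receptor of the cytokine TWEAK, was 10.59, 10.26, 10.43 and 10.43 against 8.83 to 9.50 (median 9.21) and rose by 1.14 ± 0.12 (SE), adjusted p = 2.5e-06. *Tnfrsf21*, a death receptor, was 6.52, 6.72, 6.99 and 6.74 against 5.28 to 6.10 (median 5.83) and rose by 1.10 ± 0.17 (SE), adjusted p = 1.7e-04, a call lost without the replicate block. No overlap was seen for these receptors or for *Casp4*. *Bcl2l1*, an inhibitor of apoptosis, also rose (0.55 ± 0.11 SE, adjusted p = 0.003), although 1 of its 3 probe sets differed by -0.11. *Casp1* and *Casp2* differed by -0.10 and 0.10 and did not pass.

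Targets of p53 had the highest median of the lists, 0.36, and of 25 measured members 11 rose and 1 fell. Beside *Gadd45a* and *Gdf15*, which the ATF4 list also holds, *Ccng1*, a cyclin that binds phosphatase 2A, was 11.07, 10.84, 10.88 and 10.85 against 9.77 to 10.35 (median 10.03) and rose by 0.82 ± 0.12 (SE), adjusted p = 1.0e-04. *Epha2*, an ephrin receptor, was 8.45, 8.21, 8.19 and 8.22 against 7.29 to 7.77 (median 7.45) and rose by 0.69 ± 0.12 (SE), adjusted p = 6.4e-04. *Mdm2*, the inhibitor of p53, rose with a difference of 0.62, named after its value was seen. *Bbc3* (0.23) and *Sesn1* (0.03) did not pass.

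Immediate early genes answer growth factors and stress kinases within minutes. Of 41 measured immediate early and growth signal genes 20 rose and 1 fell, with a median of 0.28. *Jun*, a subunit of AP-1, was 9.93, 9.44, 8.63 and 8.25 in cadmium and 7.17 to 7.78 (median 7.41) in controls and rose by 2.22 ± 0.17 (SE), adjusted p = 2.4e-08. The value in replicate 1 was the highest and that in replicate 4 the lowest, still above every control. *Dusp1*, a phosphatase of stress kinases, was 9.35, 8.98, 9.63 and 9.29 against 7.42 to 8.01 (median 7.57) and rose by 1.79 ± 0.16 (SE), adjusted p = 3.8e-07. *Plat*, tissue plasminogen activator, was 8.29, 8.19, 8.32 and 8.38 against 6.12 to 6.65 (median 6.39) and rose by 1.98 ± 0.23 (SE), adjusted p = 7.0e-06. *Fos*, the classic partner of *Jun*, was 5.42, 5.27, 5.16 and 5.51 against 5.12 to 5.42 (median 5.35) and did not pass, nor did *Fosb* (0.18). A second probe set of *Fos* differed by 0.63. The list median was 0.42 in the tested replicate 1 and 0.29, 0.29 and 0.20 in replicates 2 to 4.

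Among genes of the actin cytoskeleton, keratins, annexins and S100 proteins, 25 of 54 rose and 2 fell, with a median of 0.24. Of 8 measured calcium-binding S100 proteins 4 rose and 4 did not pass. *S100a6* was 9.09, 9.14, 9.25 and 9.15 in cadmium and 5.44 to 5.86 (median 5.50) in controls, a difference of 3.61 (12.2-fold), and rose by 3.62 ± 0.18 (SE), adjusted p = 8.0e-11. The 4 cadmium arrays lay close together and far above the controls. *S100a11* was 11.75, 11.39, 11.42 and 11.40 against 8.23 to 9.55 (median 9.12) and rose by 2.27 ± 0.14 (SE), adjusted p = 1.2e-09. *S100g*, calbindin of the intestine, was 6.48, 6.60, 6.98 and 6.87 against 4.15 to 4.80 (median 4.5) and rose by 2.15 ± 0.15 (SE), adjusted p = 1.0e-08. *Lgals3*, a galactose-binding lectin placed in this list, was 11.30, 11.03, 11.16 and 11.22 against 8.64 to 9.19 (median 8.77) and rose by 2.35 ± 0.16 (SE), adjusted p = 5.3e-09. Smooth and skeletal muscle actins did not pass, with differences of 0.18 for *Acta2* and 0.02 for *Acta1*. The list median was 0.38 in the tested replicate 1 and 0.31, 0.23 and 0.25 in replicates 2 to 4.

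**Figure D3:**
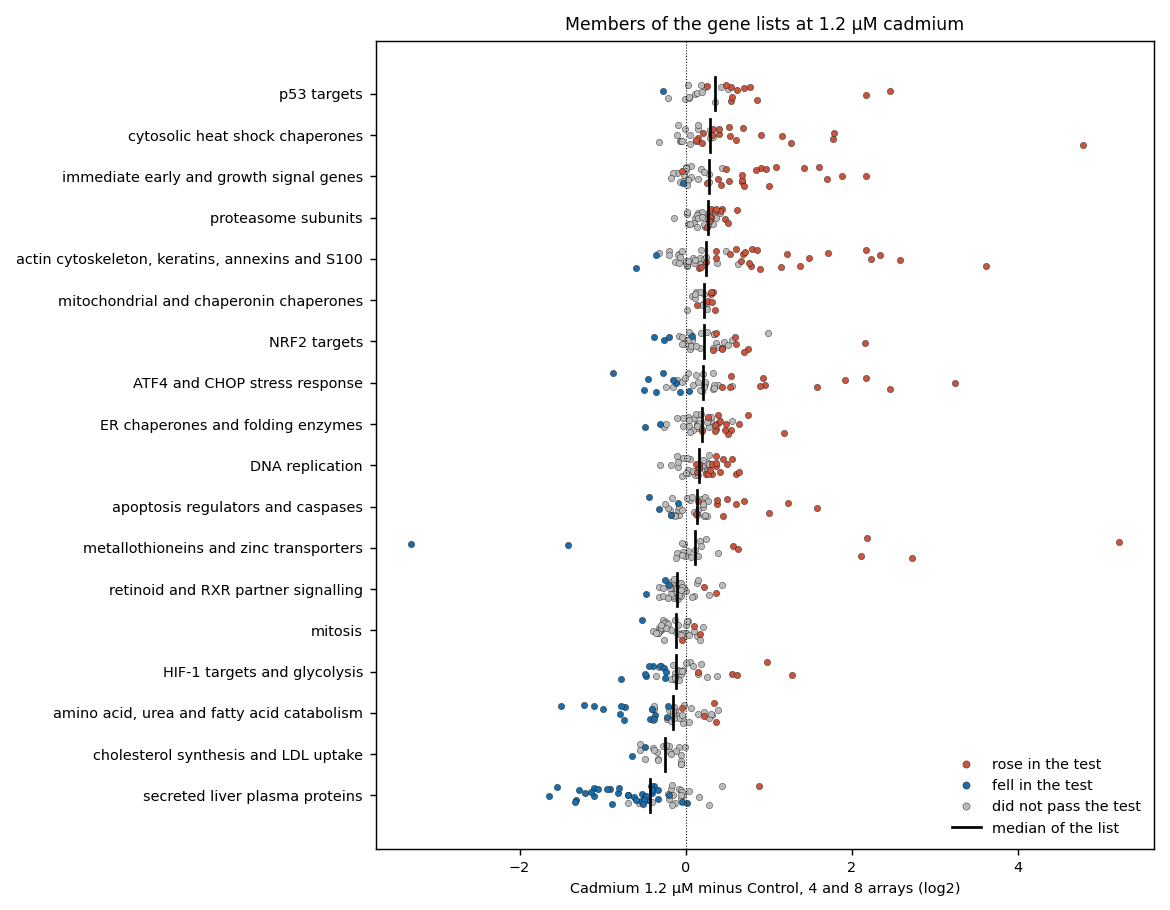
Mean difference between Cadmium 1.2 µM (4 arrays) and Control (8 arrays) in log2 level (x axis) for each measured member of 18 gene lists (rows, ordered by their median). Each point is a gene, colored by the result of the test on the array of replicate 1, and bars are medians. Medians run from -0.44 for secreted liver plasma proteins to 0.36 for p53 targets, and the metallothionein list spans -3.31 to 5.21.

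Secreted plasma proteins, a main product of hepatocytes, were lower. Of 56 measured members 35 fell, 1 rose and 20 did not pass, and the median difference was -0.44, the lowest of the lists. *Plg*, plasminogen, was 8.15, 8.46, 9.11 and 9.12 in cadmium and 9.99 to 10.91 (median 10.25) in controls and fell in the test (-1.86 ± 0.15 SE, adjusted p = 5.1e-08). *C9*, the last component of the complement pore, was 6.50, 6.39, 6.44 and 6.37 against 7.04 to 8.05 (median 7.85) and fell (-1.41 ± 0.16 SE, adjusted p = 5.9e-06). *Serpind1*, heparin cofactor II, was 6.10, 6.21, 5.96 and 6.51 against 6.87 to 8.23 (median 7.54) and fell (-2.06 ± 0.15 SE, adjusted p = 1.2e-08). *Itih2*, a heavy chain of inter-alpha-trypsin inhibitor, was 9.50, 9.64, 9.44 and 9.37 against 10.32 to 10.95 (median 10.82) and fell (-1.27 ± 0.17 SE, adjusted p = 4.1e-05). In these 4 genes all cadmium arrays lay below all controls.

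*Serpina1*, alpha-1-antitrypsin, was 9.99, 10.21, 10.32 and 10.44 against 11.11 to 11.51 (median 11.35) and fell (-1.33 ± 0.12 SE, adjusted p = 5.5e-07). *Ttr*, transthyretin, was 11.32, 11.22, 11.28 and 11.43 against 11.70 to 12.10 (median 11.83), without overlap, but did not pass in replicate 1 (adjusted p = 0.15). *Hnf4a*, a master regulator of hepatocyte genes, was 10.18, 10.33, 10.31 and 10.43 against 10.49 to 10.70 (median 10.61) and did not pass either (adjusted p = 0.18). The member that rose was *Apoa1*, the main protein of HDL, with 6.23 ± 0.45 (SD, n = 4) against 5.34 ± 0.24 (SD, n = 8) and overlapping arrays. *Fgb*, a fibrinogen chain of the acute phase, was 10.16, 10.13, 10.45 and 10.57 against 9.43 to 10.13 (median 9.92) without overlap, and did not pass (adjusted p = 0.17).

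Outside the lists, *Mug1* and *Pzp*, broad protease inhibitors of plasma, were also lower. *Mug1* was 4.07, 4.57, 4.95 and 4.78 against 6.56 to 7.26 (median 6.83) and fell (-2.57 ± 0.26 SE, adjusted p = 1.6e-06). *Pzp* was 10.42, 10.56, 10.27 and 10.48 against 10.99 to 12.14 (median 11.91) and fell (-1.63 ± 0.24 SE, adjusted p = 1.2e-04). All 4 cadmium arrays lay below all controls for both. *Abcg5*, a subunit of the sterol export pump, was 4.89, 5.21, 5.91 and 6.24 against 6.58 to 7.16 (median 6.86) and fell (-2.16 ± 0.20 SE, adjusted p = 4.1e-07). *Baat*, which conjugates bile acids, was 6.17, 6.22, 6.39 and 5.84 against 6.90 to 7.94 (median 7.17) and fell (-1.63 ± 0.23 SE, adjusted p = 8.8e-05). *Pik3c2g*, a liver lipid kinase, fell as well (-1.64 ± 0.15 SE, adjusted p = 2.6e-07).

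Of 45 genes of amino acid, urea and fatty acid catabolism 14 fell and 4 rose, with a median of -0.15. *Ddc*, aromatic amino acid decarboxylase, was 7.12, 7.36, 7.10 and 7.06 in cadmium and 7.51 to 8.65 (median 8.53) in controls and fell (-1.44 ± 0.19 SE, adjusted p = 3.0e-05). *Hao1*, glycolate oxidase, was 7.13, 6.96, 6.77 and 6.99 against 7.45 to 8.76 (median 8.05) and fell (-1.52 ± 0.14 SE, adjusted p = 5.3e-07), a call lost without the replicate block. *Tat*, tyrosine aminotransferase, was 10.06, 10.31, 9.80 and 10.19 against 10.67 to 11.48 (median 11.08) and fell (-1.31 ± 0.08 SE, adjusted p = 1.7e-09). *Arg1*, the last enzyme of the urea cycle, was 9.02, 9.29, 9.62 and 9.57 against 9.97 to 10.31 (median 10.15) and fell (-0.89 ± 0.19 SE, adjusted p = 0.0032). No cadmium array reached the lowest control in these 4 genes.

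Genes of cholesterol synthesis and LDL uptake were lower by small amounts. All 22 measured members had differences below 0, with a median of -0.25, and 2 passed the test, both falling. They were *Srebf1*, a regulator of lipid synthesis, at 9.05, 9.10, 9.38 and 9.51 against 9.71 to 10.04 (median 9.95), with a test value of -0.91 ± 0.11 (SE), adjusted p = 1.3e-05, and *Cyp51*, lanosterol demethylase, at 11.61, 11.75, 11.80 and 11.81 against 12.09 to 12.30 (median 12.25), with a test value of -0.50 ± 0.15 (SE), adjusted p = 0.037. The call of *Cyp51* was lost without the intensity trend and with Control 2 arrays alone. *Lss*, lanosterol synthase, did not pass, at 9.20, 9.51, 9.27 and 9.33 against 9.66 to 10.15 (median 9.86). Of 37 genes of retinoid and RXR partner signalling 2 rose and 3 fell, with a median of -0.11. Both liver X receptors rose, *Nr1h3* by 0.38 ± 0.10 (SE), adjusted p = 0.017 and *Nr1h2* by 0.32 ± 0.09 (SE), adjusted p = 0.022, and *Nr0b2*, the corepressor SHP, fell (-0.49 ± 0.13 SE, adjusted p = 0.014). These 3 calls were lost without the replicate block. The retinoic acid receptors *Rara* (-0.07) and *Rarb* (-0.32) did not pass.

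Of 37 HIF-1 targets and glycolysis genes 5 rose and 9 fell, with a median of -0.12. *Pfkfb3*, which makes an activator of glycolysis, was 8.18, 7.90, 7.93 and 7.77 against 6.53 to 6.79 (median 6.62) and rose by 1.5 ± 0.22 (SE), adjusted p = 9.7e-05. *Ndrg1*, a stress gene, was 9.62, 9.29, 9.36 and 9.35 against 7.73 to 8.96 (median 8.46) and rose by 0.88 ± 0.11 (SE), adjusted p = 1.3e-05. Among those that fell, *Ankrd37*, a hypoxia-induced ankyrin protein, was 5.45 ± 0.41 (SD, n = 4) against 6.23 ± 0.49 (SD, n = 8), and *Bnip3*, a mitophagy receptor, 10.76 ± 0.31 (SD, n = 4) against 11.21 ± 0.42 (SD, n = 8). Both overlapped the controls and were named after their values were seen. The glucose transporters *Slc2a1* (-0.06) and *Slc2a3* (-0.13), classic HIF-1 targets, did not pass. Of 47 DNA replication genes 18 rose and 0 fell, with a median of 0.16. *Pola2*, of the primase complex, was 7.36, 7.25, 7.18 and 7.19 against 6.27 to 6.85 (median 6.65) and rose by 0.67 ± 0.15 (SE), adjusted p = 0.0045, and *Pold2*, of polymerase delta, rose by 0.58 ± 0.11 (SE), adjusted p = 0.0017. Of 37 mitosis genes 3 rose and 1 fell, with a median of -0.11. *Bub1*, a spindle checkpoint kinase, was 8.84, 8.60, 8.47 and 8.47 against 8.88 to 9.31 (median 9.16) and fell (-0.46 ± 0.09 SE, adjusted p = 0.0025), a call lost without the block, whereas *Ccnb1* (-0.27) and *Ccna2* (0.01) did not pass. The median of the mitosis genes was 0.07 in replicate 1 and -0.21, -0.28 and -0.19 in replicates 2 to 4. That of the DNA replication genes was 0.29 in the tested replicate 1 and 0.14, 0.06 and 0.20 in replicates 2 to 4.

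Several of the largest differences lay in no list. *Emp1*, a tetraspan membrane protein, was 9.29, 9.01, 9.52 and 9.17 in cadmium and 5.80 to 7.06 (median 6.18) in controls and rose by 2.33 ± 0.14 (SE), adjusted p = 8.6e-10. *Clu*, clusterin, a secreted chaperone, was 12.36, 12.09, 12.46 and 12.33 against 10.02 to 10.13 (median 10.04) and rose by 2.32 ± 0.09 (SE), adjusted p = 4.7e-13. *Gpr15lg*, a chemoattractant ligand, was 7.59, 7.14, 7.73 and 7.43 against 4.99 to 5.23 (median 5.12) and rose by 2.5 ± 0.16 (SE), adjusted p = 3.8e-09. None of these groups overlapped, and for *Clu* the 8 controls lay close together. A second probe set of *Clu* differed by 0.13 and one of *Emp1* by 1.79.

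The lower cadmium concentrations, taken in the same order of titles, gave fewer differences. At 0.2 µM, 0 probe sets were higher and 0 lower by 1.8-fold without overlap, and at 0.55 µM 30 were higher (0.0966%) and 0 lower. These share the 8 controls with the 1.2 µM comparison, and no test was made between doses. *Mt2A* differed from the controls by 0.14 at 0.2 µM and 1.56 at 0.55 µM, beside 5.21 at 1.2 µM. *Hspa1a* differed by 0.03 at 0.2 µM and 1.03 at 0.55 µM, beside 4.78. *S100a6* differed by 0.00 at 0.2 µM and 1.31 at 0.55 µM, beside 3.61. For *Slc39a10* the values were 0.02 at 0.2 µM and -0.30 at 0.55 µM, beside -3.31, so that most of the drop lay between the 2 higher doses. *Plg* gave -0.05 at 0.2 µM and -0.67 at 0.55 µM, beside -1.65. From the lowest to the highest dose, the list medians were 0.01, 0.08 and 0.29 for heat shock chaperones and 0.07, -0.03 and -0.44 for plasma proteins. Those of the NRF2 targets were close at all doses, 0.21, 0.24 and 0.22. Those of mitosis genes were farthest from 0 at the lowest dose, -0.39, -0.25 and -0.11, and those of DNA replication genes changed sign, -0.25, -0.07 and 0.16.

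**Figure D4:**
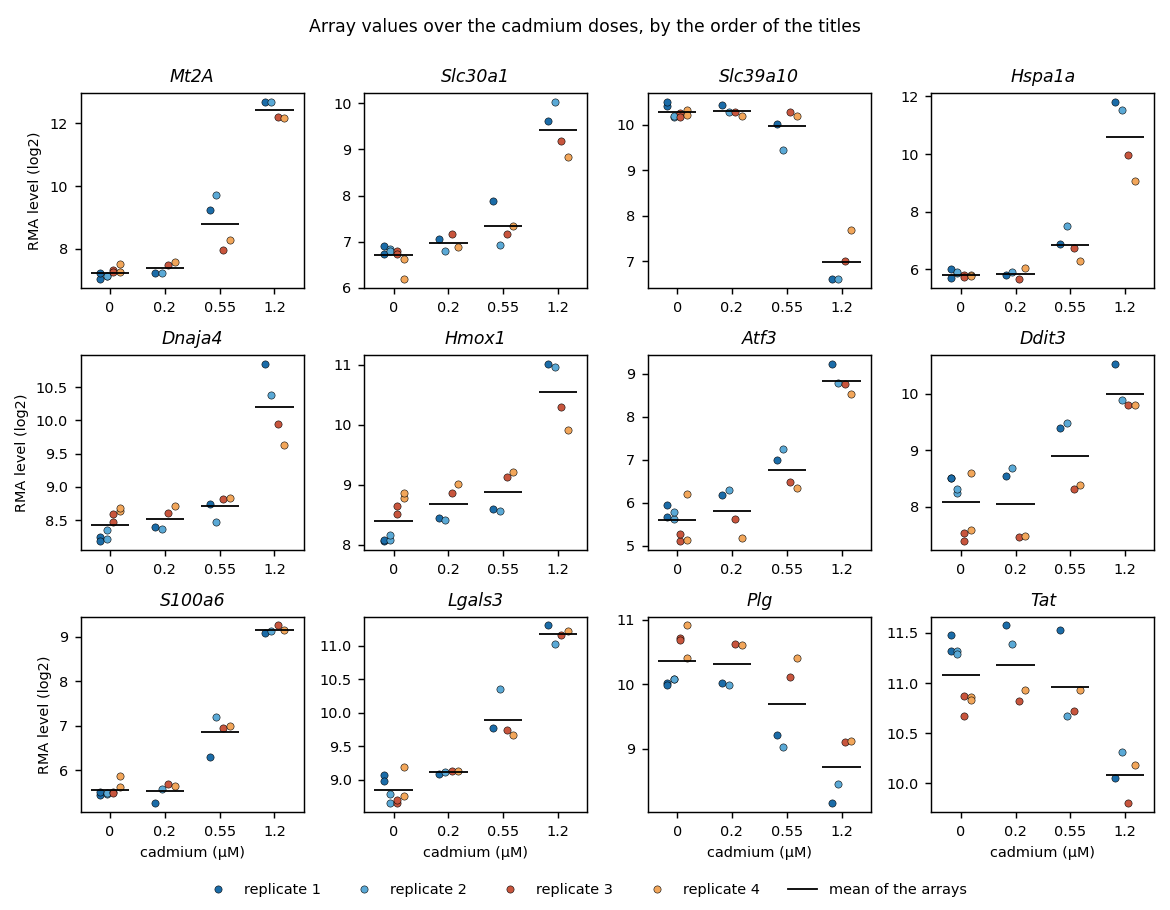
RMA levels (log2, y axes, each panel on its own scale) of 12 genes in Control (0) and at the 3 cadmium concentrations in µM (x axis), by the order of the titles. Points are arrays colored by replicate and bars are means. At 1.2 µM all 4 arrays lie outside the control range in every panel, and for *Mt2A* the mean differs from that of the controls by 5.21, against 0.14 at 0.2 µM and 1.56 at 0.55 µM.

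Cadmium was also tested against the highest concentrations of the other metals, nickel at 400 µM and chromium at 10 µM, in the same fit, as contrasts that do not involve the level of the controls. The doses differ in molarity, each being the highest chosen by viability. Over all probe sets cadmium was higher than nickel in 3973 (12.8%) and lower in 3169 (10.2%), and higher than chromium in 2938 (9.46%) and lower in 2340 (7.54%). For genes with 1 probe set the shares were 20.3% and 9.31% against nickel, and 13.5% and 8.41% against chromium. In the same direction against both metals, cadmium was higher in 1139 genes and lower in 405.

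Genes higher in cadmium than in both metals included a chaperone, a glucose transporter and S100 and secreted proteins. *Hspa1a* exceeded nickel by 5.08 ± 0.16 (SE, adjusted p = 5.6e-14) and chromium by 5.73 ± 0.16 (SE, adjusted p = 2.3e-14). *Slc2a2*, the low-affinity glucose transporter of liver, was 8.34, 8.71, 8.45 and 8.58 in cadmium and 6.44 to 7.72 (median 7.32) in controls. It exceeded nickel by 3.63 ± 0.19 (SE, adjusted p = 5.7e-11) and chromium by 3.90 ± 0.19 (SE, adjusted p = 5.9e-11). Its mean differed from the controls by 1.31 in cadmium, -1.95 in nickel and -2.19 in chromium, so that cadmium and the other metals lay on opposite sides of the controls. The rise of *Slc2a2* over the controls (1.91 ± 0.19 SE, adjusted p = 1.1e-06) was lost without the replicate block.

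*S100a6* exceeded nickel by 2.89 ± 0.18 (SE, adjusted p = 7.4e-10) and chromium by 3.16 ± 0.18 (SE, adjusted p = 8.2e-10), and *Clu* by 2.65 ± 0.09 (SE, adjusted p = 5.6e-14) and 2.71 ± 0.09 (SE, adjusted p = 6.7e-14). *Plcl1*, an inactive relative of phospholipase C, was 6.48, 5.54, 4.99 and 4.68 in cadmium against 3.75 to 4.2 (median 4.06) in controls, highest in replicate 1. It exceeded the metals by 2.41 ± 0.17 (SE, adjusted p = 2.8e-09) and 2.45 ± 0.17 (SE, adjusted p = 8.3e-09), and by 1.39 and 1.28 over the means of 4 arrays. *Ly6i*, of the Ly6 family of surface proteins, exceeded them by 2.70 ± 0.19 (SE, adjusted p = 2.7e-09) and 2.17 ± 0.19 (SE, adjusted p = 1.7e-07).

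Among genes lower in cadmium than in both metals was *Slc7a11*, the cystine importer and a target of NRF2 and ATF4. It was 6.36, 6.30, 6.30 and 6.12 in cadmium and 4.82 to 6.67 (median 5.62) in controls, and differed from nickel by -3.17 ± 0.17 (SE, adjusted p = 8.2e-11) and from chromium by -1.41 ± 0.17 (SE, adjusted p = 9.5e-06). *Dnaaf1*, a factor for ciliary dynein assembly, differed by -1.57 ± 0.08 (SE, adjusted p = 3.3e-11) and -1.60 ± 0.08 (SE, adjusted p = 5.9e-11). *Sult1c2*, a sulfotransferase, differed by -1.0 ± 0.13 (SE, adjusted p = 9.5e-06) and -1.61 ± 0.13 (SE, adjusted p = 7.4e-08). For these 3 genes the cadmium arrays overlapped the controls. Over the 4 arrays of each condition the differences were smaller, -1.46 and -0.60 for *Slc7a11*, -1.20 and -1.09 for *Dnaaf1* and -0.57 and -1.05 for *Sult1c2*. The 4 nickel arrays ran from 6.02 to 9.56 for *Slc7a11* and from 4.69 to 6.77 for *Sult1c2*, and overlapped the cadmium arrays. So did the 4 chromium arrays, at 6.01 to 7.75 for *Slc7a11* and 5.055 to 7.42 for *Sult1c2*. *Amd1*, of polyamine synthesis, did not overlap, with 9.19, 9.13, 9.14 and 9.13 against 9.61 to 10.03 (median 9.77), and differed from the metals by -1.09 ± 0.08 (SE, adjusted p = 3.7e-09) and -0.96 ± 0.08 (SE, adjusted p = 7.4e-08).

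The zinc genes and *Hmox1* were nearer to nickel than to chromium. *Mt2A* lay above nickel by 1.41 ± 0.15 (SE, adjusted p = 1.0e-06) and above chromium by 3.99 ± 0.15 (SE, adjusted p = 2.0e-12). *Slc39a10* differed from nickel by -0.51 ± 0.19 (SE, adjusted p = 0.0668), which did not pass, and from chromium by -2.78 ± 0.19 (SE, adjusted p = 1.0e-08). *Hmox1* differed by -0.26 ± 0.09 (SE, adjusted p = 0.0496) from nickel and by 1.90 ± 0.09 (SE, adjusted p = 5.9e-11) from chromium, and by -0.63 and 1.09 over the means of 4 arrays. Of the 37 HIF-1 targets 30 were lower than in nickel and 1 higher. Of the 47 replication genes 30 were lower than in chromium and 2 higher. Of the 43 ER genes 32 were higher than in chromium and 2 lower, while 11 were higher than in nickel and 7 lower. Over means of 4 arrays, the ER list median against the controls was 0.19 in cadmium, 0.23 in nickel and -0.29 in chromium. By this median the list lay above the controls in cadmium and nickel and below them in chromium.

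**Figure D5:**
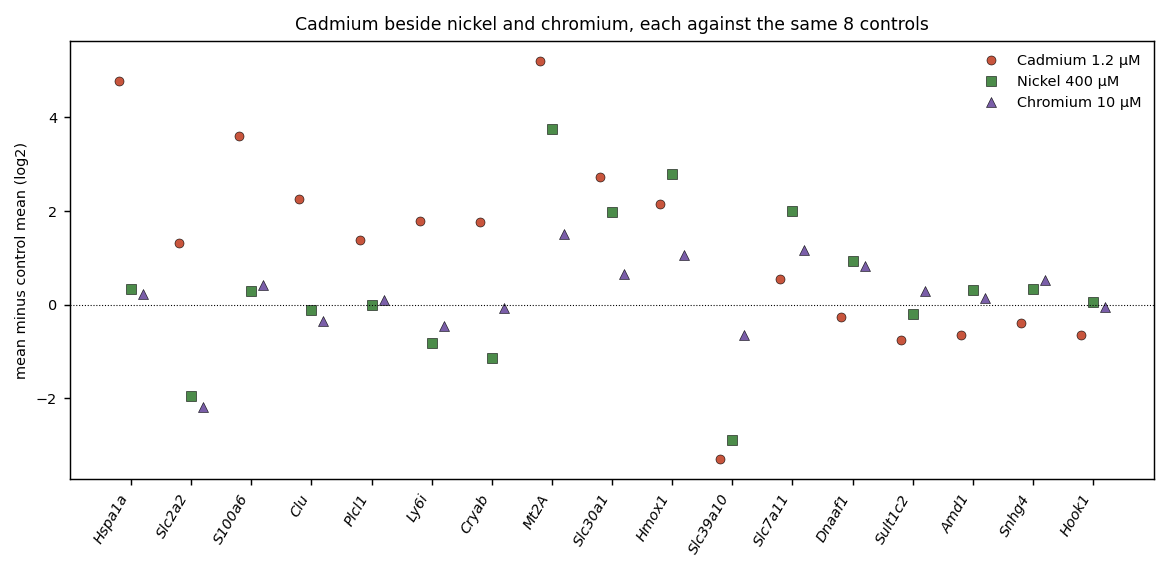
Mean log2 difference from the same 8 controls (y axis) for 17 genes (x axis) in Cadmium 1.2 µM, Nickel 400 µM and Chromium 10 µM, 4 arrays each by the order of the titles. *Hspa1a* stands at 4.78 in cadmium against 0.34 in nickel and 0.22 in chromium, while *Slc39a10* is at -3.31 in cadmium and -2.89 in nickel.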

How the data were processed

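The deposited table holds log2 expression values per probe set that the authors made with RMA in Partek from Affymetrix whole genome rat arrays. Array control probe sets (57 of 31099) were left out and no filter on low values was set. The scanner files were not used here, and the number of arrays limits the precision. Gene names came from the platform annotation, which names 1 gene for 20826 probe sets, several for 436 and none for 9780. Each of 14217 genes was represented by its probe set with the highest mean over 44 arrays.

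Condition and replicate were taken from the titles in the order described above, which departs from the labels for 22 of 44 arrays. The comparison of 4 with 8 arrays carries no test. Tests used limma 3.58.1 (R 4.3.3) with an intensity trend, condition and replicate as terms, two-sided p-values and Benjamini-Hochberg adjustment. The 2 control arrays of a replicate were averaged, leaving 18 samples from 20 arrays, 7 residual degrees of freedom and a prior of 12.25. Replicate was kept as a block because the deviations of cadmium and control arrays of the same number correlated with r of 0.424, 0.347, 0.336 and 0.512 in replicates 1 to 4. Between different numbers r was also 0.276 for cadmium 1 with control 2 and 0.123 for cadmium 2 with control 1. It was 0.335 for cadmium 3 with control 4 and 0.109 for cadmium 4 with control 3. It was -0.004 or lower between cadmium and control arrays when 1 was of replicate 1 or 2 and the other of replicate 3 or 4. These correlations use the order of the titles, and the tested fit holds replicates 1 and 2 alone. Where the labels call replicates biological but give no cultures or dates, p-values measure the spread between these arrays. The fit was also run on made-up data with known changes, in which the cadmium array was given the same spread as the other arrays. Such data cannot show whether the 1 real cadmium array varies like the others.

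The members and gene lists were chosen with earlier results of these data known. Named genes were the 12 largest differences in each direction without overlap, up to 4 members of each list with the largest differences without overlap and up to 2 defining members that moved less than 1.3-fold, genes the study names for cadmium, and the 6 largest differences in each direction from both other metals. Other probe sets of *Bcl2l1*, *Canx*, *Col1a1*, *Hk1*, *Hsd17b7*, *Nr1h2*, *Pfkfb3*, *Ptprc*, *Sesn1* and *Sqstm1* differed in sign from the one used. Promoters are RefSeq sequences of GRCr8, matched by symbol for 112 of 138 named genes. Alternatives covered the order, the fold and p thresholds, the block, the trend, the choice of controls and probe sets, and leaving out each replicate.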

Additional observations from a re-analysis of the deposited data

Results flagged for a closer look

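In 276 groups of 4 or 8 arrays, 1 array stood apart from its group in 20, and chance gives about 1 in 20 groups. The gap to the nearest array is given as a share of the range of the group. Control 2 of replicate 4 was the lowest control for *Alb* (0.635), *C9* (0.603), *Ddc* (0.735), *Fgb* (0.548), *Itih2* (0.647), *Pzp* (0.633) and *Slc30a1* (0.613). The same array was the highest control for *Canx* (0.768), *Nr0b2* (0.604), *Psmd8* (0.562), *S100a6* (0.579) and *Zfand2a* (0.545). Control 2 of replicate 3 was the lowest for *Slc2a3* (0.553). Among the cadmium arrays, replicate 1 was highest for *Ddit3* (0.888), *Epha2* (0.897) and *S100a11* (0.915), replicate 2 for *Mt1* (0.952), replicate 3 for *Sqstm1* (0.858) and replicate 4 for *Pmvk* (0.844). Replicate 4 was the lowest for *Hspd1* (0.897).

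Effects that differed between the metals in the limma tests are given as cadmium minus nickel and then cadmium minus chromium (log2). Higher in cadmium were *Hspa1a* (5.08 and 5.73), *Slc2a2* (3.63 and 3.90), *S100a6* (2.89 and 3.16), *Clu* (2.65 and 2.71), *Plcl1* (2.41 and 2.45) and *Ly6i* (2.70 and 2.17). Lower in cadmium were *Slc7a11* (-3.17 and -1.41), *Dnaaf1* (-1.57 and -1.60), *Sult1c2* (-1.0 and -1.61), *Amd1* (-1.09 and -0.96), *Snhg4*, a small nucleolar RNA host gene (-0.95 and -1.08), and *Hook1*, a microtubule linker (-1.05 and -0.92). For *Hook1* the 4 cadmium arrays ran from 4.59 to 6.22 and the controls from 4.82 to 7.19. The nickel arrays ran from 4.996 to 7.355 and the chromium arrays from 4.852 to 7.337, so all these groups overlapped.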

How the results depend on the processing

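With the labels as deposited, 0 probe sets were higher and 0 lower in cadmium, against 234 and 59 by the order of the titles. The counts were 624 and 191 at 1.5-fold, 145 and 38 at 2-fold, and 16 and 3 without the probe sets of the study's table. Leaving out each replicate gave 208 to 253 higher and 54 to 77 lower. Replicates 1 and 2 alone, an alternative chosen after seeing the data like the next 2, gave 247 and 122, replicates 3 and 4 alone 288 and 66, and leaving out Control 2 of replicate 4 gave 251 and 72. Pairing by a replicate block gave 243 and 70. For the tests above and below, the fit without the block also held control arrays of replicates 3 and 4, 22 arrays in place of 20. A call lost in that fit therefore cannot be put down to the block alone.

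In the test against controls (2409 and 1328), the fit without the replicate block gave 1471 and 563, cadmium and control arrays alone 4318 and 3516, and the thresholds of the study's methods (FDR 0.001 and 1.8-fold) 260 and 115. Against nickel, no block gave 2736 and 1720 and the stricter thresholds 673 and 456. Against chromium, no block gave 1353 and 630 and the stricter thresholds 411 and 140. Without the block 121 list members rose and 34 fell, against 176 and 87.

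With the labels as deposited, the medians of the ATF4 and CHOP list (-0.1913), cholesterol synthesis (0.0053) and HIF-1 targets (0.0195) changed sign, as did *Abcc2* (-0.1472) and *Tnfrsf21* (-0.0738). The test value of *Hook1* against the controls was -0.95 (log2) with the block. It was 0.25 in the fit without the block, which also held more control arrays. This change of sign therefore cannot be put down to the block alone. Of 138 named gene tests, 20 lost their call without the block, 10 without the trend and 4 with Control 2 alone. The cause was not tested. With 1 cadmium array in the test, its precision rests on the spread of the other arrays. The fit of cadmium and control arrays alone held 6 samples, with 1 residual degree of freedom and a prior of 58.32. Its estimates of spread therefore rest almost wholly on that prior.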
